A study of Mus musculus with 12 samples.

Results

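Gm28187 (ENSMUSG00000099375), Gm20186 (ENSMUSG00000106874), Gm9973 (ENSMUSG00000113175) and ENSMUSG00000121069, 4 of the 982 genes in the deposited mouse table, were followed through all 12 RNA-seq libraries. They were chosen by their values, as transcripts higher in every Resf1-edited line than in the control line, so their difference from control is a description and carries no test. The reference annotation (GENCODE release M21, assembly GRCm38) gives Gm28187 and Gm20186 as lincRNAs and Gm9973 as a transcribed unprocessed pseudogene. ENSMUSG00000121069 is not in that annotation, so whether it is noncoding was not checked here.

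The libraries came from 6DT1, a mouse mammary cancer cell line from an MMTV-Myc tumor. The groups were a wild-type line with a scrambled guide (sgControl) and 3 Resf1 knockout lines, sg1, sg2 and sg3, each made with another guide and each with 3 replicate dishes. The growth conditions in the labels include puromycin for all groups, and per the study's methods the knockout lines received their guide in a lentiviral CRISPR vector with GFP, were sorted on GFP and were grown from single cells. Each edited line is therefore 1 clone and a guide and its clone cannot be told apart. How the control line was derived is not given in the sources used here. P-values measure the spread between dishes of 1 line, and in bulk RNA a change in the share of expressing cells and a change per cell cannot be told apart.

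Long intergenic noncoding RNAs are transcribed like messenger RNAs but encode no known protein, and transcribed pseudogenes are copies of genes that have lost their coding function while still making RNA. Retroelements, and some noncoding loci derived from them or beside them, are kept quiet by heterochromatin that the methyltransferase SETDB1 marks on histone H3. RESF1, retroelement silencing factor 1, is known as a partner of SETDB1 in silencing endogenous retroviruses in embryonic stem cells. What any of the 4 transcripts does is not known from the labels or the annotation.

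The sequences of the 3 annotated transcripts show how far their reads can be assigned to 1 locus. Gm28187 lies at chr1:101892958-101895091 on the minus strand as 1 exon of 2134 bases. The first 120 bases of its transcript, at chr1:101894972-101895091, are shown because it had the largest difference from control in the mean of the 3 guides. No letter in these bases is marked.
Gm28187-201: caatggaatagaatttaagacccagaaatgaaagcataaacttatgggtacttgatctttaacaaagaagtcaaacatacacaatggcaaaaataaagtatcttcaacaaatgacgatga
In a local alignment against all annotated transcripts (blastn, E-value of at most 1e-05), Gm28187 matched transcripts of 574 other genes over 200 bases or more, with a median identity of 74.0% and a highest of 82.8%. Only 2 genes matched it at 90% identity or more over 60 bases or more, and neither was in the table. Copies outside annotated transcripts were not looked for.

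Gm20186 lies at chr6:18845910-18848207 on the minus strand, with 1050 bases of exon in 3 transcripts. It has close copies elsewhere. Gm12840, another lincRNA, matched Gm20186-201 at 97.5% identity over 628 bases, and AC160336.1 matched it at 91.0% over 556 bases. Gm26809, on the opposite strand of the same locus, covered 600 of its bases at 100% identity. The start of the part shared with Gm12840 is shown, with the 1 base that differs in capitals (C110T, counted from 1 at the 5′ end of the printed run), because reads from such a stretch cannot be placed with certainty. The Gm20186 bases lie in 2 exons, at chr6:18846625-18846741 and chr6:18846505-18846507.
Gm20186-201: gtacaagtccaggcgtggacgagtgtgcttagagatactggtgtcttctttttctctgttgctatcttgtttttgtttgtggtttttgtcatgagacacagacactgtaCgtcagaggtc
Gm12840-201: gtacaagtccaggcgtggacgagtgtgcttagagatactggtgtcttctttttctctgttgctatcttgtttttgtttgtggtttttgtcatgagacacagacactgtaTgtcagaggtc
Gm12840, Gm26809 and AC160336.1 were not analysed here, and Gm20186 values are uncertain to the extent that counting split reads among them.

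Gm9973 spans chr13:4350397-4391265 on the minus strand, with 4257 bases of exon, inside the cluster of aldo-keto reductase 1C genes, whose enzymes reduce steroids and other carbonyl compounds. Its transcript Gm9973-205 matched 8 annotated Akr1c genes at 69.8% to 77.0% identity over 220 to 282 bases. Akr1c13, the 1 of these in the table, matched at 72.9% over 262 bases. A stretch of that match without a gap, bases 127 to 246 of Gm9973-205 (chr13:4391137-4391139 and chr13:4382584-4382700, minus strand), is shown with the 38 of 120 bases that differ from Akr1c13 in capitals.
Gm9973-205: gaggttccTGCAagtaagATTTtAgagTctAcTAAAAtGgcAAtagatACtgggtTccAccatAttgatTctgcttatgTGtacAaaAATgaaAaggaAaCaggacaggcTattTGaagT
The differing bases are spread along the stretch rather than gathered at 1 end. Other parts of Gm9973 have closer matches. It matched transcripts of 410 other genes over 200 bases or more, with a median identity of 75.5% and a highest of 94.3%, and 15 genes at 90% identity or more over 60 bases or more. The longest of these were Gm48942, at 94.3% over 368 bases of Gm9973-203, and Gm14226, at 91.7% over 169 bases of Gm9973-205 on the opposite strand. Of the 15, Gm20186 and Il18rap, the latter at 90.5% over 63 bases, were in the table and the others were not analysed here. Gm9973 values are uncertain to the extent that counting split reads among them.

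A short identity joins Gm20186 and Gm9973 themselves. Bases 71 to 146 of Gm20186-203 (chr6:18848062-18848137, minus strand) match the reverse complement of bases 558 to 633 of Gm9973-203 (chr13:4381779-4381854, minus strand) over 76 bases at 98.7% identity. The 1 difference, A31G counted from 1 at the 5′ end of the printed runs, is in capitals. The pair is shown because it was a feature that 2 of the transcripts share and that their choice did not use.
Gm20186-203: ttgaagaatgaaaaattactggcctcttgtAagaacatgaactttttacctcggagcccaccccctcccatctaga
Gm9973-203, reverse complement: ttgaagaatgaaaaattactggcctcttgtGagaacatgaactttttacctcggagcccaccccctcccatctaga
Among the annotated transcripts of 55450 genes this segment was found, at 90% identity or more over 60 bases or more, in Gm20186 and Gm9973 alone. Copies outside annotated transcripts were not looked for here either, so it is not known to be particular to these loci. The segment lies in opposite orientation in the 2 transcripts, so stranded reads from it are told apart by strand where counting used it. The match is a description of the letters and says nothing of regulation.

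The table holds normalized counts, that is, count estimates for each gene scaled by a size factor of the library. It had been selected, since each of its 982 genes passed an unadjusted limma p of 0.05 when the edited lines, averaged, were set against the control. Table sums were 2069298 to 2713951 per library and cover only part of a library, whose depth is unknown. No replicate pair was a duplicate, since the chi-square of estimated reads per degree of freedom was at least 12.9 in the 12 pairs. Of the cell type markers looked up, 4 of 14 epithelial genes (Krt8, Krt18, Krt19 and Cgn), 1 of 11 fibroblast genes (Fn1), 1 of 10 leukocyte genes (Cd68) and 0 of 6 endothelial genes were in the table, and the rest were not analysed here. The epithelial genes summed to 12354 to 12825 normalized counts in sgControl, 23027 to 25325 with sg1, 12025 to 12354 with sg2 and 9465 to 10701 with sg3. Krt8 and Krt18 made up most of these sums. The mean of Cgn was 45.0 in sgControl, 101.3 with sg1, 22.7 with sg2 and 3.42 with sg3. That of Krt19 was 494.9, 622.3, 401.8 and 182.2 in the same order. Fn1 was at 714.0 to 766.4 in sgControl, 775.7 to 886.4 with sg1, 637.3 to 730.3 with sg2 and 1048 to 1262 with sg3, and Cd68 at 102.5 to 154.4, 282.8 to 326.8, 154.2 to 169.3 and 138.5 to 158.8. The epithelial genes and Cd68 thus stood high in sg1, where Gm28187 was lowest among the edited lines, and their part in the results was not tested. Resf1 itself was not analysed here, which leaves the knockout labels unchecked.

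Ranked, here and below, by the mean log2 difference of the 3 guides from sgControl, Gm28187, the single-exon lincRNA, was the highest riser of the table. Its normalized count was 34.4, 19.05 and 33.4 in the sgControl replicates, 263.7, 172.6 and 251.9 with sg1, 677.0, 492.9 and 711.1 with sg2 and 492.3, 390.8 and 531.9 with sg3. The lowest edited library thus stood 5.02-fold above the highest control library, and sg1 lay below both other edited lines without overlap. The means were 28.9 ± 8.58 (SD, n = 3) in sgControl, 229.4 ± 49.5 with sg1, 627.0 ± 117 with sg2 and 471.7 ± 72.8 with sg3, which is 7.93-fold, 21.7-fold and 16.3-fold the control mean. Replicate 2 was the lowest of its line in 4 of 4 lines. All 12 values came out as whole estimated reads, to within 0.05 reads, between 21 and 816.

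ENSMUSG00000121069, the unplaced transcript, was the second highest riser and the most abundant of the 4 in the edited lines. Its normalized count was 240.3, 179.9 and 249.4 in sgControl, 2450, 2281 and 2335 with sg1, 2268, 2211 and 2853 with sg2 and 2344, 2458 and 2494 with sg3. No edited library came below 2211, which is 8.86-fold the highest control library, and the 3 edited lines overlapped one another. From 223.2 ± 37.8 (SD, n = 3) in sgControl the mean went to 2355 ± 86.1 with sg1, 2444 ± 356 with sg2 and 2432 ± 78.2 with sg3, or 10.6-fold, 10.9-fold and 10.9-fold the control mean. Replicate 3 of sg2 stood above the other 8 edited libraries. Estimated reads were whole, to within 0.05 reads, in 1 of 12 libraries, and what made the others fractional was not tested.

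Gm20186, the lincRNA beside Lsm8, was the sixth highest riser. The sgControl libraries had 320.3, 302.4 and 375.0 normalized counts, those of sg1 1820, 1700 and 1729, those of sg2 1733, 1706 and 1813 and those of sg3 1495, 1562 and 1637. All edited libraries were at least 3.99-fold above the highest control library, and the 3 sg3 libraries were below the 6 libraries of sg1 and sg2. Means were 332.6 ± 37.8 (SD, n = 3) in sgControl, 1750 ± 63.0 with sg1, 1751 ± 55.9 with sg2 and 1565 ± 71.0 with sg3, or 5.26-fold, 5.26-fold and 4.71-fold the control mean. Estimated reads were whole in 1 of 12 libraries here too, beside the close copies described above.

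Gm9973, the Akr1c-like pseudogene, was the fourth highest riser and the least abundant. It had 8.84, 3.65 and 0.953 normalized counts in sgControl, from about 9, 4 and 1 estimated reads. In sg1 it had 21.3, 26.2 and 23.2, in sg2 21.9, 20.9 and 29.6 and in sg3 20.95, 16.4 and 27.4, from 17 to 34 reads. The lowest edited library was 1.85-fold the highest control library, so the groups did not overlap but the gap was the narrowest of the 4. The mean was 4.48 ± 4.01 (SD, n = 3) in sgControl, 23.6 ± 2.48 with sg1, 24.2 ± 4.76 with sg2 and 21.6 ± 5.53 with sg3. With reads summed over replicates and divided by the summed size factors of their libraries, 68 reads with sg1 against 14 in sgControl gave a ratio of 5.35. In the same way 76 reads with sg2 gave 5.53 and 65 with sg3 gave 4.91. On the log2(normalized count + 1) scale the sg1 difference of 2.45 became 3.02 without sgControl replicate 1 and 1.86 without sgControl replicate 3. Its estimated reads were whole in 12 of 12 libraries.

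**Figure D1:**
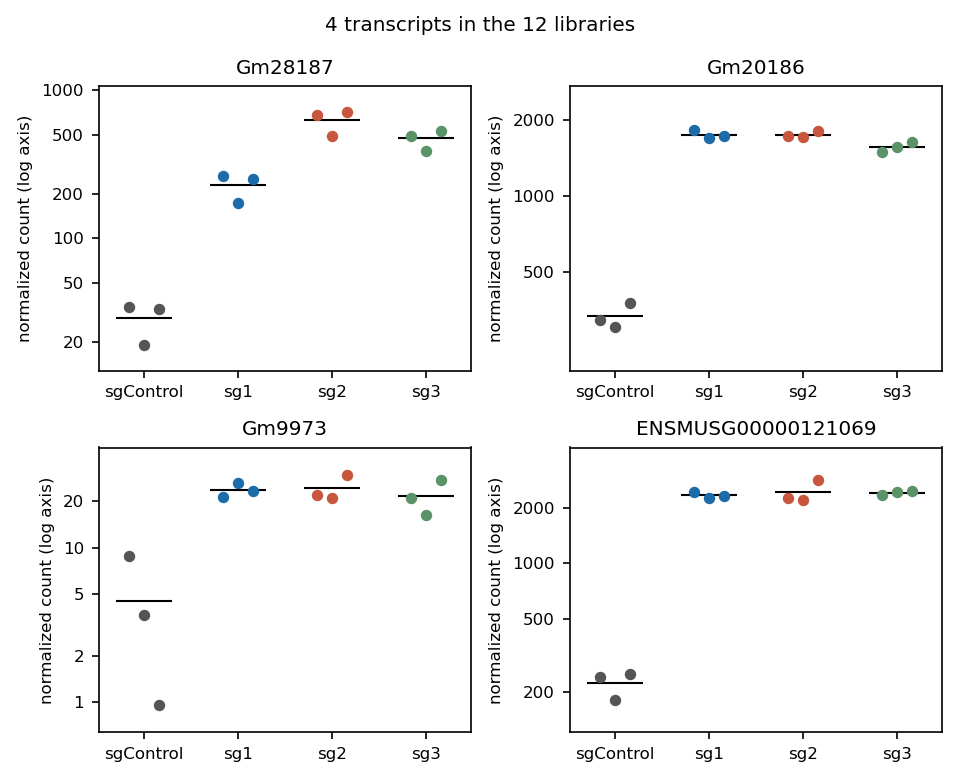
Normalized count (log axis, a different range in each panel) of Gm28187, Gm20186, Gm9973 and ENSMUSG00000121069 in the 3 replicates of sgControl, sg1, sg2 and sg3, as points, with the group mean as a line. In each panel the 9 edited libraries sit above the 3 control libraries, and in the panel of Gm28187 the sg1 points, at 172.6 to 263.7, sit below those of sg2 and sg3.

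All 9 edited libraries were above all 3 controls for each of the 4 transcripts. This was so for 14.8% of the 982 genes, but the transcripts were chosen on this contrast and nothing is read from their count. Gm10401, the third highest riser with a mean log2 difference of 2.48, and Gm48795, the fifth with 2.37, stood between them and are not among the 4. Gm10401 is annotated as protein coding and was called higher with 3 guides, while Gm48795, a lincRNA, was called higher with 2. Per kilobase of exon, the sgControl level of Gm20186 was 316.7 normalized counts, that of Gm28187 13.6 and that of Gm9973 1.05. In sg2 these levels were 1667, 293.8 and 5.68, so the order of the 3 transcripts was the same in both lines.

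Whether the 3 edited lines differ among themselves was not itself what the transcripts were chosen on. The choice did use the level of each edited line, so the test among lines is not fully independent of it. The test was limma on log2(normalized count + 1) with all 12 libraries in 1 fit and Benjamini-Hochberg adjustment over the 982 genes, at a threshold of 0.05. By that test 75.3% of the genes of the table differed among the 3 guides, and of the 4 transcripts Gm28187 did (adjusted p = 4.12e-05, 3 of 3 sg1 libraries below the other 6). The other 3 missed the threshold. The adjusted p was 0.0746 for Gm20186, 0.925 for Gm9973 and 0.899 for ENSMUSG00000121069. A missed threshold does not show that the lines were alike, and the intervals below give the sizes the data allow.

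The difference in Gm28187 was largest between sg1 and the other guides. It was 2.74-fold higher in sg2 than in sg1 on the log2(normalized count + 1) scale (sg1 minus sg2 -1.45, SE 0.215, 95% interval -1.91 to -0.996, limma adjusted p = 1.87e-05), a pair in which 67.6% of the table was called. Against sg3, sg1 was lower by -1.05 (-1.51 to -0.592, adjusted p = 0.00042), where 65.7% of the table was called. Between sg2 and sg3 the difference was 0.40 (-0.053 to 0.860, adjusted p = 0.193), with 30.5% of the table called, and the libraries of the 2 lines overlapped. With a replicate block in the limma fit that adjusted p was 0.0047. The order was thus sg2 and sg3 above sg1, and sg1 above sgControl.

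Gm20186 differed little between lines. Its sg1 and sg2 means differed by less than 0.001 on the log2 scale, with an interval of -0.152 to 0.1504. It was 0.16 higher with sg1 than with sg3 (0.010 to 0.313, limma adjusted p = 0.0569) and 0.16 higher with sg2 than with sg3 (0.011 to 0.313, adjusted p = 0.104), a fold of 1.12 in each case. With a replicate block in the limma fit these adjusted p-values were 0.0250 and 0.0463. The test over the 3 guides passed when sgControl replicate 2 or replicate 3 was left out (adjusted p = 0.0441 and 0.0243). It also passed in a fit of the 3 edited lines alone (0.0215) and with a replicate block (0.0301). Its adjusted p was 0.838 after scaling to the table total and 0.180 after median-of-ratios scaling, where sg1 exceeded sg3 by 0.051 and 0.015 on the log2 scale.

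For ENSMUSG00000121069 the pairwise differences were -0.044 for sg1 minus sg2 (-0.270 to 0.182), -0.046 for sg1 minus sg3 (-0.272 to 0.180) and -0.0023 for sg2 minus sg3 (-0.228 to 0.224). As folds, these intervals run from 0.828 to 1.17. Gm9973 was measured much less precisely. Its sg1 minus sg2 difference was -0.024 with an interval of -0.958 to 0.911, and the other pairs gave 0.15 (-0.788 to 1.08) and 0.17 (-0.765 to 1.10). As folds these intervals run from 0.515 to 2.15, and differences inside them were not detectable in this fit.

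**Figure D2:**
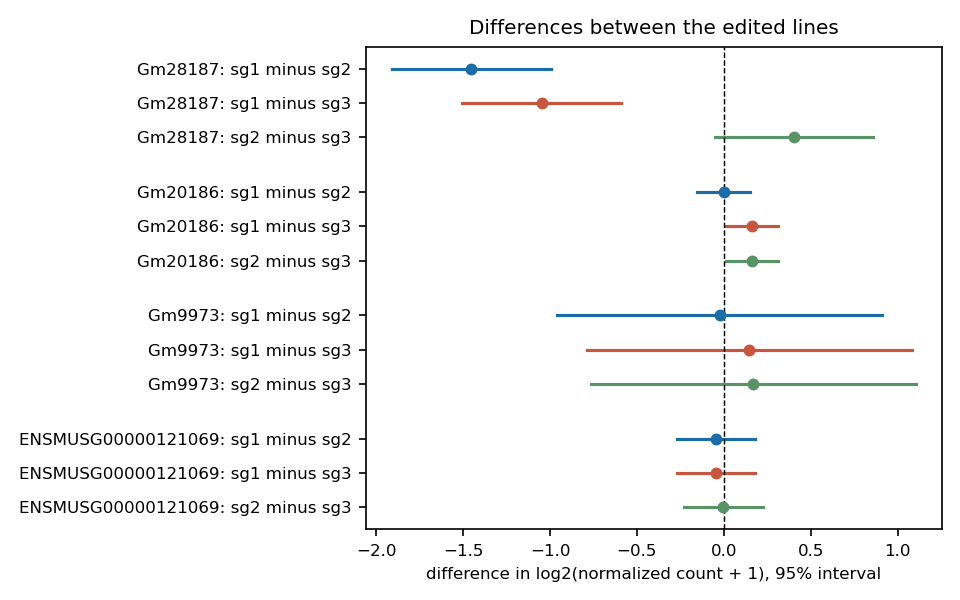
Difference in log2(normalized count + 1) between pairs of edited lines (horizontal axis) for the 4 transcripts, with points for the estimate and lines for its 95% interval from the limma fit of 12 libraries. The intervals of Gm28187 for sg1 minus sg2 and sg1 minus sg3 lie below 0, those of Gm9973 are the widest, and those of ENSMUSG00000121069 all cross 0.

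The spread of the rise among guides was far wider for Gm28187 than for the other three. It was taken as the highest minus the lowest of the 3 log2 differences from sgControl, and given for the 53 genes with a mean difference over 1. Over these the median spread was 1.01. With the deposited scaling ENSMUSG00000121069 had 0.046, Gm20186 0.16 and Gm9973 0.17, while Gm28187 had 1.45 and 38 of the 53 were below it. The order of the small spreads depended on the scaling. After scaling to the table total they were 0.157, 0.061 and 0.073, and after median-of-ratios scaling 0.193, 0.128 and 0.138. Without sg3 replicate 3 that of Gm9973 was 0.350, without sg2 replicate 3 that of ENSMUSG00000121069 was 0.119, and over the 20 alternatives that of Gm28187 was 1.26 to 1.62. As the 4 were chosen for being raised in every line, these values are a description.

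**Figure D3:**
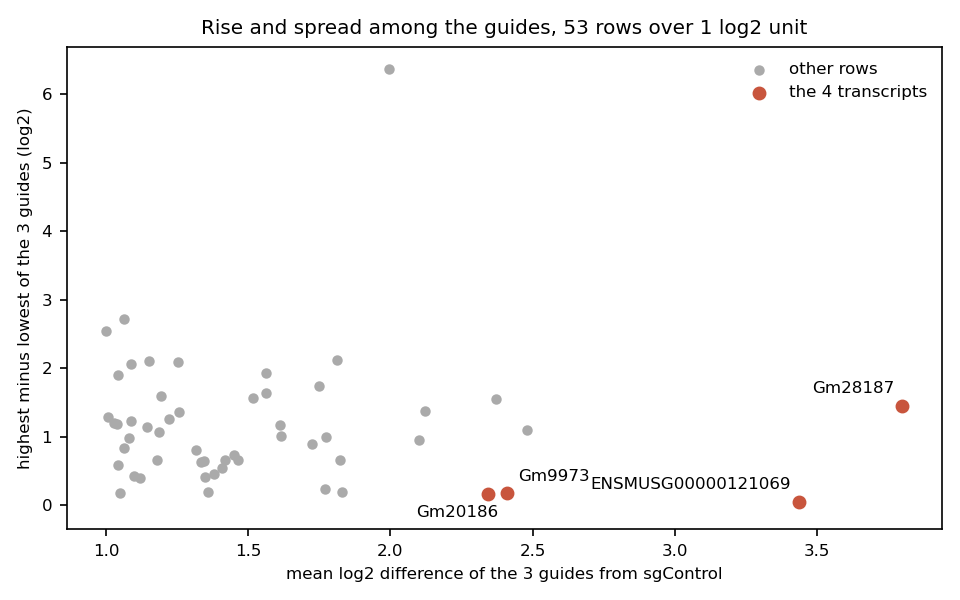
Mean log2 difference of the 3 guides from sgControl (horizontal axis) against the highest minus the lowest of the 3 guides (vertical axis, log2) for the 53 genes with a mean over 1, with the 4 transcripts in red and the others in grey, all with the deposited scaling. ENSMUSG00000121069, Gm20186 and Gm9973 lie along the lower edge, at 0.046 to 0.17, and Gm28187 is farthest right, at a spread of 1.45.

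The transcripts were also compared within libraries, where the size factor cancels. The ratio of Gm20186 to ENSMUSG00000121069 was 1.33 to 1.68 in the sgControl libraries, 0.740 to 0.745 with sg1, 0.635 to 0.772 with sg2 and 0.636 to 0.656 with sg3. Gm20186 was thus the higher of the pair in every control library and the lower in every edited library. The ratio of Gm28187 to Gm20186 was 0.063 to 0.107 in sgControl, 0.102 to 0.146 with sg1, 0.289 to 0.392 with sg2 and 0.250 to 0.329 with sg3, with sg1 overlapping the control. These ratios are of normalized counts per gene and not per length.

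**Figure D4:**
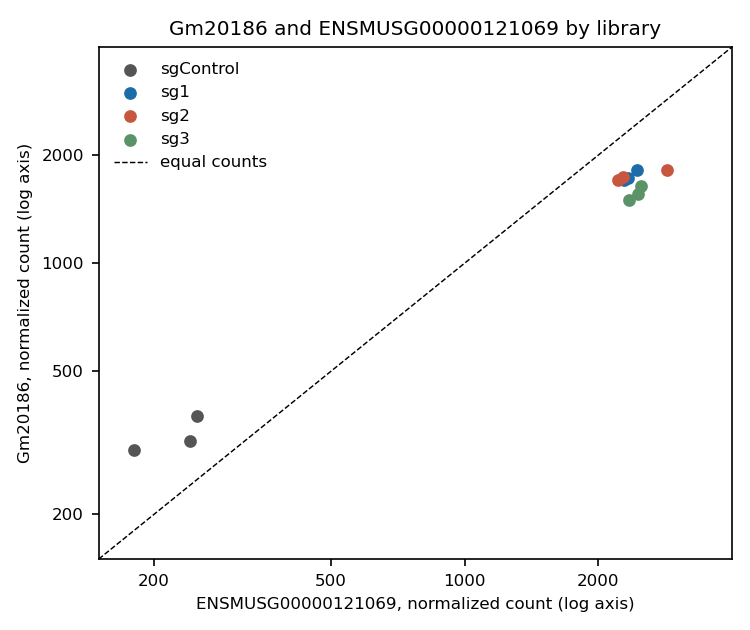
Normalized count of ENSMUSG00000121069 (horizontal log axis) against that of Gm20186 (vertical log axis), 1 point per library, coloured by line, with a dashed line for equal counts. The 3 control libraries lie above the line, at ratios of 1.33 to 1.68, and the 9 edited libraries below it, at 0.635 to 0.772.

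Within lines, deviations of log2(normalized count + 1) from the group means over the 12 libraries correlated at r = 0.75 for Gm20186 with ENSMUSG00000121069, 0.75 for Gm28187 with ENSMUSG00000121069 and 0.61 for Gm28187 with Gm20186. Those of Gm9973 gave -0.51 with Gm20186 and 0.10 and 0.015 with the others. The libraries share their size factor and depth in these correlations, which are given as a description.

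The genes whose pattern over the 12 libraries was most like each transcript were listed by Pearson correlation of log2(normalized count + 1), which is set mostly by the step from control to edited lines. For Gm20186 they were ENSMUSG00000121069 (r = 0.996), ENSMUSG00000121137 (0.993), another unplaced transcript, and Amigo2 (0.963), which encodes a cell adhesion protein. The nearest to ENSMUSG00000121069 were Gm20186 (0.996), ENSMUSG00000121137 (0.987) and Etl4 (0.959). Gm28187 was most like Atp13a4 (0.953), a P-type ATPase gene, then ENSMUSG00000121069 (0.950) and ENSMUSG00000121137 (0.945). For Gm9973 the list was Gm20708 (0.911), ENSMUSG00000121069 (0.893) and ENSMUSG00000121137 (0.888).

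ENSMUSG00000121137, near all 4 transcripts by this measure, had 67.4 ± 1.64 (SD, n = 3) normalized counts in sgControl, 244.4 ± 15 with sg1, 258.0 ± 25.9 with sg2 and 226.2 ± 12.9 with sg3. Its adjusted p among guides was 0.28. Atp13a4 differed from the others in size, from 215.0 ± 12.2 in sgControl to 269.9 ± 3.75 with sg1, 351.5 ± 31.8 with sg2 and 346.7 ± 15.2 with sg3, and like Gm28187 it had its lowest edited mean in sg1.

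The genes of the table that lie next to the transcripts were taken by position alone, as the nearest on each side and any within 1 Mb. Each had already passed the table's selection on the edited lines averaged against control, so its calls are not independent of that selection. These neighbours were 6, and 1 of them lay within 1 Mb. Against sgControl the test called 89.2% of the table with sg1, 59.7% with sg2 and 59.9% with sg3, and called it higher in 50.1%, 30.2% and 26.5%. These directions depended on the scaling. Of the genes called, 56.2%, 50.7% and 44.2% were higher, against 45.7%, 21.9% and 27.2% after scaling to the table total and 49.5%, 40.7% and 42.0% after median-of-ratios scaling. Of the 6 neighbours, 4 rose and 2 fell with sg1, 1 rose and 1 fell with sg2 and 2 rose and 1 fell with sg3. None was called with all 3 guides in this fit.

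Akr1c13, an aldo-keto reductase gene 144801 bases from Gm9973, had 18.9 ± 2.51 (SD, n = 3) normalized counts in sgControl, 63.2 ± 6.41 with sg1, 24.5 ± 4.04 with sg2 and 23.4 ± 4.64 with sg3. It rose with sg1 by 1.69 on the log2 scale (SE 0.234, limma adjusted p = 4.49e-06), with libraries at 58.5 to 70.5 against 16.9 to 21.7 in sgControl. With sg2 the difference was 0.35 (-0.144 to 0.845, adjusted p = 0.193) and with sg3 0.28 (-0.211 to 0.779, adjusted p = 0.292). The guides differed (adjusted p = 3.78e-05). Gm9973 itself was at 21.6 to 24.2 in all 3 edited lines, so the sg1 level of Akr1c13 stood apart where that of Gm9973 did not. The Akr1c genes that lie closer to Gm9973, Akr1c6, Akr1c12, Akr1c19 and Akr1c20, and the overlapping Gm47951 were not analysed here. The other neighbour on chromosome 13, Dip2c, 4.89 Mb away, had 610.3 ± 20.6 in sgControl, 746.7 ± 33.8 with sg1, 657.2 ± 29.3 with sg2 and 726.3 ± 23.8 with sg3, and rose with sg1 and sg3 (0.29 and 0.25, limma adjusted p = 0.000459 and 0.00349). The sg1 call of Dip2c was lost after median-of-ratios scaling (0.0525), and both were lost after scaling to the table total (0.509 and 0.234).

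Gm20186 had no gene of the table within 1 Mb. Lsm8, an RNA-binding protein gene that starts 372 bases away on the opposite strand, Gm26809 and Ankrd7 were not analysed here. The nearest on one side was Met, the hepatocyte growth factor receptor gene, 1.27 Mb away, with 8167 ± 356 (SD, n = 3) in sgControl, 9315 ± 228 with sg1, 8806 ± 36.4 with sg2 and 8852 ± 420 with sg3. It rose by 0.19 with sg1 (limma adjusted p = 0.00157) and by 0.12 with sg3 (0.0479), and with sg2 the difference was 0.11 (0.0591, or 0.0329 with a replicate block). The sg1 call was lost under both other scalings, with a difference of -0.023 after scaling to the table total, and the sg3 call was lost in 14 of 20 alternatives. On the other side Impdh1, which encodes an enzyme of guanine nucleotide synthesis, lay 10.4 Mb away. It fell by 0.75 with sg1, from 1392 ± 36.99 to 827.9 ± 17.8 (limma adjusted p = 3.16e-08), and by 0.30 with sg3, to 1135 ± 117 (0.00155), and was at 1412 ± 58.7 in sg2.

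Around Gm28187 the table was empty for several megabases, and the pseudogene Gm28188, 12217 bases away, was not analysed here. Serpinb8, a serine protease inhibitor gene 5.69 Mb away, had 152.7 ± 6.03 (SD, n = 3) in sgControl, 366.8 ± 9.91 with sg1, 188.0 ± 3.74 with sg2 and 166.9 ± 18.96 with sg3. It rose with sg1 by 1.26 (limma adjusted p = 5.67e-09) and with sg2 by 0.30 (0.018), the latter lost without sgControl replicate 3 (0.0532) or sg2 replicate 1 (0.0505) and after scaling to the table total (0.596). Erfe, the gene of the iron-regulating hormone erythroferrone, lay 10.5 Mb away and fell with sg1 and sg2, from 43.7 ± 5.38 to 14.9 ± 8.11 and 18.9 ± 4.62 (-1.60 and -1.19, adjusted p = 0.00017 and 0.00461), and was at 42.7 ± 7.66 in sg3. Where Gm28187 was lowest among the edited lines, in sg1, Serpinb8 was highest.

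**Figure D5:**
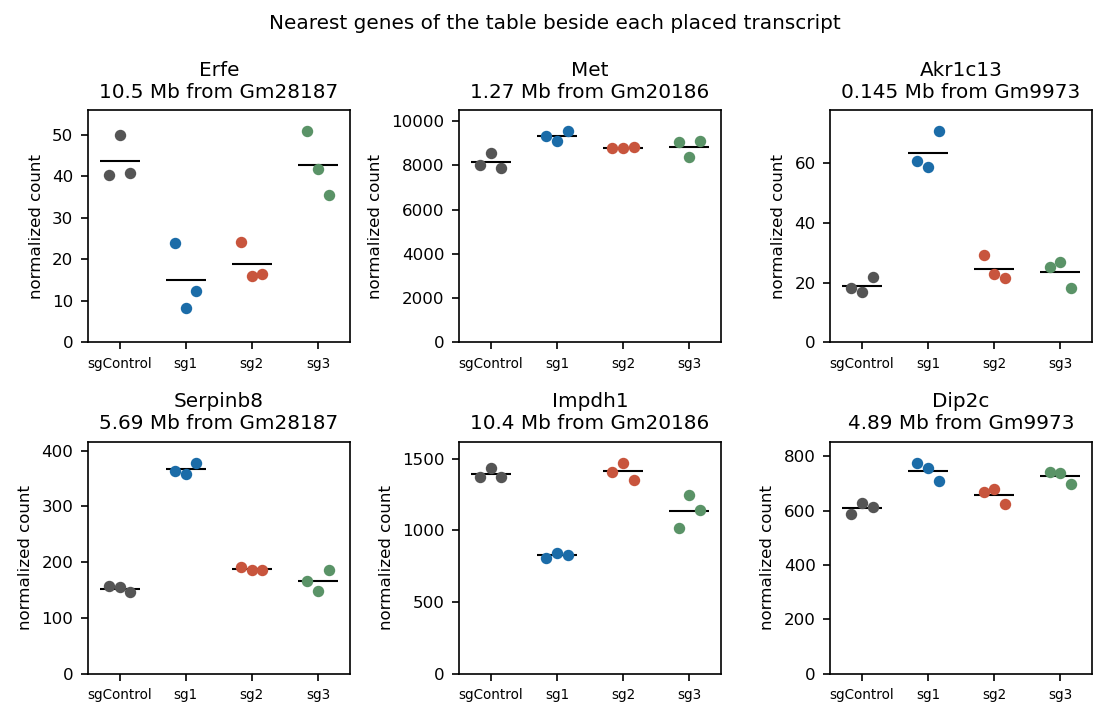
Normalized count (vertical axes from 0) of the 6 genes of the table nearest to the placed transcripts, with 3 replicates of sgControl, sg1, sg2 and sg3 as points and the mean as a line; each title gives the distance. Akr1c13 and Serpinb8 stand apart in sg1, at means of 63.2 and 366.8, and Erfe is low in sg1 and sg2.

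Genes of the silencing machinery were looked up from a list of 41, among them Setdb1, Trim28 and the HUSH subunits. The table held 2, and the rest were not analysed here. Cbx5, which encodes the heterochromatin protein HP1 alpha, rose with sg1 by 0.62 (limma adjusted p = 1.24e-09), from 10267 ± 2.43 (SD, n = 3) to 15830 ± 250, and was at 10226 ± 326 in sg2 and 10523 ± 232 in sg3. Pcgf6, a subunit of a noncanonical Polycomb complex that represses germline genes, fell with sg1 by 0.55 (5.51e-06) and with sg3 by 0.19 (0.0434) from 426.3 ± 9.03, and was 0.15 lower with sg2 (0.101). They were named after their values were seen. Of 26 germline genes that silencing keeps off in somatic cells, 0 were in the table.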

How the data were processed

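RNA was sequenced from 12 libraries of 6DT1 cells in 4 groups of 3. The authors deposited a normalized signal for each gene. Judged by the values, it is an estimated count divided by a size factor of its library: 79.2% to 84.6% of values under 100 estimated reads were whole multiples of a library's step to within 0.05. Whole reads could not be recovered for all genes, so no count model was used. The submitters' processing notes name Partek, STAR 2.7.8a and DESeq2. The mouse build and annotation are not given in the sources used here, and the labels' treatment text describes a knockdown in human cells. Reads shared by copies of a locus can move between them, and a size factor moves all genes of a library.

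Differences were tested with limma 3.58.1 (R 4.3.3) on log2(value + 1), with an intensity trend and robust estimates, all 12 libraries in 1 fit, two-sided and adjusted over 982 genes. This scale understates the change of low genes. Tests were checked on simulated data. Positions and sequences are from GENCODE M21 (GRCm38), which may not be the authors' build. It held 972 of the 982 genes, and alignments used blastn 2.17.0. The transcripts named are the 4 members, their nearest genes of the table on each side and within 1 Mb, the 3 most correlated genes of each, the genes of 2 fixed lists (silencing and germline) and of 4 cell type marker lists, and the 5 highest and 5 lowest other noncoding genes. Gm10401 was named after its values were seen. The members and lists were chosen with earlier results of these data known. Alternatives were pseudocounts of 0.5 and 5, a mean of at least 10, 2 other scalings, a constant prior, fewer groups, a replicate block and leaving out each replicate.

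Same-numbered replicates deviated together in 3 of 3 pairs for sgControl with sg1 (r from 0.20 to 0.24) and with sg2 (0.12 to 0.16) and in 0 of 3 with sg3. Between edited lines they did so in 2 of 3 pairs for sg1 with sg2 (-0.032 to 0.324) and for sg1 with sg3 (-0.022 to 0.192). For sg2 with sg3 it was 1 of 3 (-0.064 to 0.165). What a number marks is not in the labels. No column lacked a sample.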

Additional observations from a re-analysis of the deposited data

Results flagged for a closer look

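The equality of the 3 edited lines was tested directly, and 1 of the 4 transcripts and 5 of their 6 neighbours differed among the lines (limma adjusted p). Of the 982 genes, 75.3% did. Gm28187 differed at 4.12e-05, with sg1 the lowest. The neighbours of Gm28187 that differed were Erfe at 0.000674, high in sg3, and Serpinb8 at 2.16e-08, high in sg1. Beside Gm20186, Impdh1 differed at 6.18e-08, low in sg1 and highest in sg2. Beside Gm9973, Akr1c13 differed at 3.78e-05, high in sg1. Dip2c differed at 0.0342, a call lost in 5 of 20 alternatives, with the smallest difference from sgControl in sg2. The transcripts next to them, Gm20186 at 0.0746 and Gm9973 at 0.925, missed the threshold.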

How the results depend on the processing

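Counts of genes called, both directions together, stayed within 1.5 times their value under the 20 alternatives of each comparison. Counts of genes called higher did so except after scaling to the table total, when they fell from 297 to 133 with sg2 and from 260 to 141 with sg3 against sgControl and from 168 to 108 in sg2 against sg3. Genes that differed among guides numbered 686 to 782, against 739. The rise of each of the 4 transcripts in each line kept its direction in all alternatives. They were chosen on this rise, and every edited library was above every control, so this lends it no support. For Gm28187 the log2 difference was 2.6995 to 3.16 with sg1, 4.15 to 4.58 with sg2 and 3.75 to 4.16 with sg3, while for Gm9973 in sg1 it was 1.67 to 3.02. The difference of Gm28187 between sg1 and the other lines kept its call throughout, and that of Dip2c among guides lost it in 5 alternatives (adjusted p 0.0171 to 0.165). Differences near 0 changed sign when a replicate was left out, with ranges of -0.030 to 0.025 for Gm20186 in sg1 against sg2, -0.115 to 0.126, -0.028 to 0.326 and -0.0045 to 0.350 for Gm9973 in sg1 against sg2, sg1 against sg3 and sg2 against sg3, -0.111 to 0.072 and -0.119 to 0.065 for ENSMUSG00000121069 in sg1 against sg2 and sg2 against sg3, -0.011 to 0.049 for Impdh1 with sg2 and -0.170 to 0.081 for Erfe with sg3. After scaling to the table total, which moved the median of all genes by -0.21 with sg1, -0.20 with sg2 and -0.10 with sg3, Met had -0.023 in sg1 and -0.094 in sg2, Impdh1 -0.18 in sg2 and Dip2c -0.097 in sg2. Median-of-ratios scaling moved the median by -0.15 in sg1 and gave -0.022 for Impdh1 in sg2. The replicate block raised the count of genes that differed among guides to 775. With the block the adjusted p was 0.0301 for Gm20186 among guides, 0.0250 in sg1 against sg3 and 0.0463 in sg2 against sg3, and 0.0047 for Gm28187 in sg2 against sg3. For edited lines the shared number is not known to pair dishes, and among the calls tested under the block (the 4 transcripts among guides and in pairs of lines, the 6 neighbours among guides and against sgControl) it changed no other than these and that of Met in sg2. It raised the genes called against sgControl from 586 to 671 with sg2 and from 588 to 661 with sg3. The cause was not tested. Depth limits Gm9973, with 1 to 9 reads per control library.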

Other observations

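Beside the 4 transcripts the table held 76 other genes that the annotation does not give as protein coding or does not hold. With all 3 guides, 12 of them (15.8%) were called higher and 9 (11.8%) lower (limma), against 14.1% and 11.8% of all 982 genes, and their median log2 difference in the mean of the guides was -0.15, against 0.14 over all 982 genes. The lincRNAs numbered 15, Gm28187 and Gm20186 included, of which 3 (20%) were called higher and 1 lower with all 3 guides, and 13 were higher in the mean of the guides, against 500 of all 982 genes (50.9%). Both of those transcripts were chosen for being higher. Of the 10 genes that the annotation does not hold, ENSMUSG00000121069 included, 7 were called higher with all 3 guides, against the same 14.1%, and ENSMUSG00000121069 was chosen for this. All of these directions come from a table selected on that contrast.

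The highest of the 76 were Gm48795, AC120164.1, ENSMUSG00000121137, 1810059H22Rik and Gm37529. AC120164.1 had 16.7 ± 3.83 (SD, n = 3) normalized counts in sgControl, 59.8 ± 17.1 with sg1, 115.2 ± 27.9 with sg2 and 61.9 ± 15.04 with sg3. Gm48795 had 6.30 ± 5.95 in sgControl and 33.2 ± 17.7, 18.9 ± 15.1 and 39.3 ± 16.9 in the 3 edited lines. The lowest were Gm43305, Gm49410, Hoxb3os, Gm14230 and Gm15910. Gm43305 was at 1054 ± 114 in sgControl, 426.4 ± 55.4 with sg1, 11.4 ± 8.72 with sg2 and 6.41 ± 4.96 with sg3, and Hoxb3os, an antisense transcript of the Hoxb cluster, was at 49.1 ± 4.66 in sgControl and 73.8 ± 32.6, 0.428 ± 0.678 and 42.4 ± 2.97 in sg1, sg2 and sg3.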
